A study of Mus musculus with 18 samples.

Results

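The bone morphogenetic protein (BMP) pathway and the ID genes were followed through 10 genes: the inhibitor of DNA binding genes Id1, Id2, Id3 and Id4, the BMP receptors Bmpr1a and Bmpr2, the receptor-activated SMADs Smad1 and Smad5, and the inhibitory SMADs Smad6 and Smad7. They were taken by gene name from a deposited table of 12012 genes. Of the 10 genes, 9 had a row and Smad6 had none, so Smad6 is given no value. No gene of the table had a mean under 40.7 normalised counts, and genes used at lower levels are therefore not covered.

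The RNA came from primary hippocampal cultures of late mouse embryos on a C57BL/6J background, either wild type for Fibcd1 (WT) or carrying the Fibcd1tm1Lex knockout allele in all cells (KO). Fibcd1 encodes a receptor for chondroitin sulphate, and both groups compared here were plated on a coating of chondroitin sulphate proteoglycans (CSPG) and kept for 2 or 3 days, since the sources differ on the day. The table had columns for 4 WT CSPG and 4 KO CSPG libraries, with the replicate letters A to D, out of 18 labelled libraries. The uncoated WT and KO libraries and a further WT CSPG library were not analysed here, so every comparison below is between the genotypes on CSPG, and none shows an effect of the coating itself.

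BMP ligands bind a complex of type I receptors (such as Bmpr1a, Bmpr1b and Acvr1) and type II receptors (such as Bmpr2), and the type I receptor then phosphorylates SMAD1, SMAD5 and SMAD9. These enter the nucleus with SMAD4 and switch on target genes, among which the ID genes and the inhibitory SMADs, which feed back on the pathway, respond most directly. ID proteins have a helix-loop-helix but no DNA-binding region; they capture the E proteins, the partners that neurogenic bHLH factors need, and in the developing brain they are known for holding progenitors undifferentiated and for favouring glial over neuronal fates.

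The libraries held 10099564 to 11174615 reads over the genes of the table in WT CSPG (median 10544988.5) and 10541445 to 11647202 in KO CSPG (median 11265741.5). Values are normalised counts, in which the size factor of a library has been divided out, and they were used without further scaling. Fibcd1 lay between 54.3 and 182 normalised counts in WT CSPG and between 0.932 and 7.16 in KO CSPG, and its log2 fold change was -4.48 (SE, the standard error, 0.58, adjusted p = 0.00599). The 4 Y-linked genes Ddx3y, Kdm5d, Uty and Eif2s3y were all lower in KO CSPG (log2 fold changes -0.85 to -0.67) and Xist was higher (0.67), with no overlap between the groups for any of the 5. The sex of the embryos is not given for single libraries, genotype accounted for 91.2% of the variance of the summed Y-linked level, and the part of either in the differences below cannot be told apart. All 11 neuron markers had a row, and so had 11 of 12 astrocyte and radial glia markers and 7 of 7 oligodendrocyte lineage markers, so cultures labelled as neurons also held glial RNA. In such bulk RNA, fewer cells of a type and less RNA per cell cannot be told apart. The labels do not tie a letter in one genotype to the same letter in the other. The p-values measure the spread between cultures whose independence is known only from their description as biological replicates.

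None of the 9 measured genes passed the test between KO CSPG and WT CSPG (limma, Benjamini-Hochberg adjusted p under 0.05 over all genes of the table). In the same fit 327 of 11553 genes were called, which is 2.83% of them, 122 higher (1.06%) and 205 lower (1.77%) in KO CSPG. At an unadjusted p under 0.05, 1 of the 9 passed, Id1, beside 16.2% of all genes. For none of the 9 were the groups without overlap, beside 9.24% of all genes. The log2 fold changes of the 9 ran from -0.13 for Smad7 to 0.23 for Id1, 4 above 0 and 5 below, and their median was -0.02 beside a median of all genes of -0.00. With 9 genes, a share near 2.83% would be less than 1 gene, so the count of 0 sets the members neither above nor below the background.

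**Figure D1:**
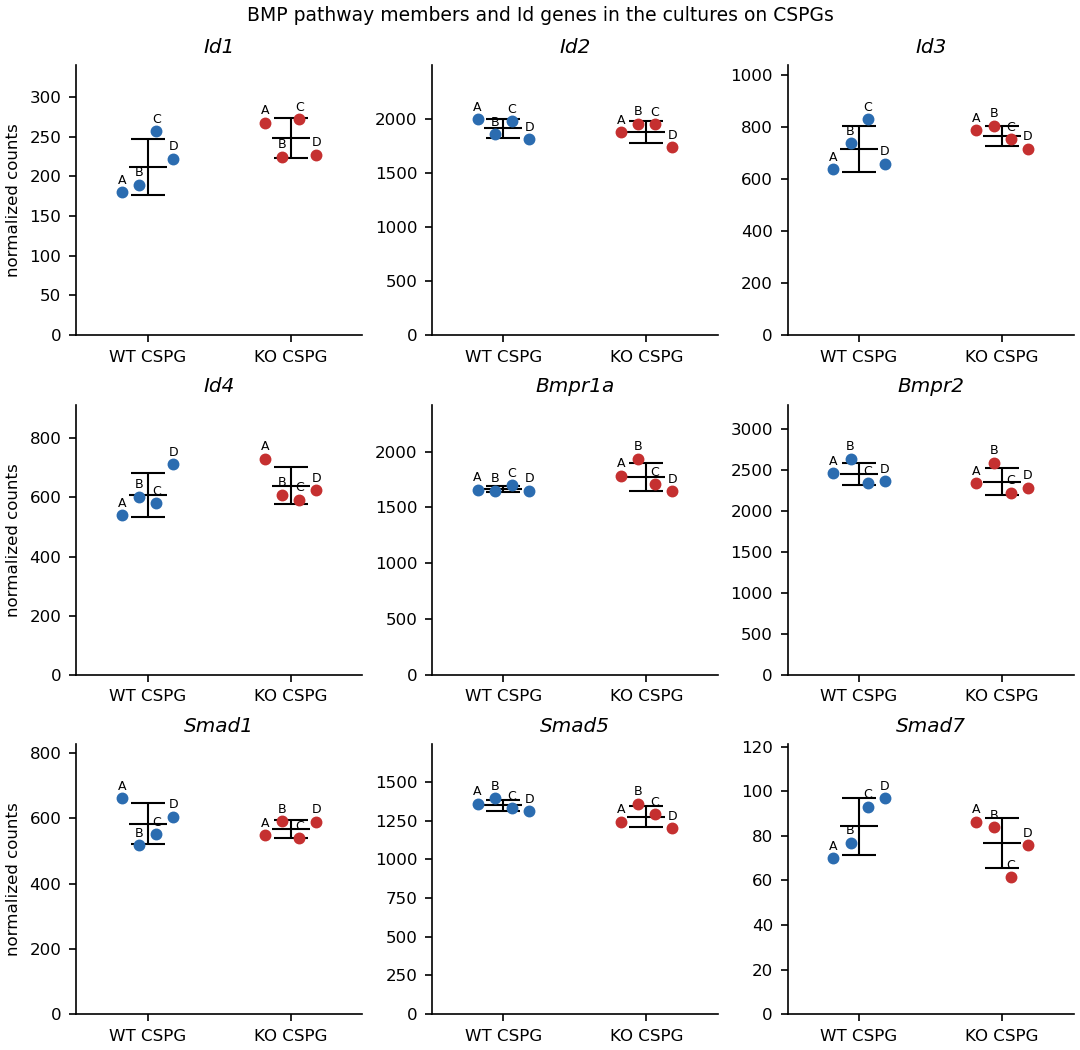
Normalised counts of the 9 measured genes in each library, 4 WT CSPG and 4 KO CSPG points per panel, with a linear axis from 0 and the group mean and SD. The groups overlap in every panel, and Id1 is the gene whose means stand farthest apart in log2 terms, at 212 and 248.

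Id2 had the highest level per length of the members, while Bmpr2 had the highest normalised counts. Id2 lies on the minus strand of chromosome 12 (chr12:25093801-25096092, GRCm38), and its product is made in neurons as well as in progenitors. It held 1999, 1863, 1981 and 1812 normalised counts in WT CSPG A to D and 1882, 1959, 1953 and 1738. The lowest value was in KO CSPG D and the highest in WT CSPG A, and the groups overlapped. The means were 1914 ± 90.9 (SD, n = 4) and 1883 ± 103 (SD, n = 4), a log2 fold change of -0.02 (SE 0.04, adjusted p = 0.842), and the 95% interval of the fold change was 0.928 to 1.04.

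Id1, a 1160-base gene on the plus strand of chromosome 2 (chr2:152736251-152737410), is the ID gene used most often as a readout of BMP signalling. Its normalised counts were 179.7, 189.5, 257 and 222 in WT CSPG A to D and 268, 225, 272 and 228 in KO CSPG A to D. WT CSPG A and B were the 2 lowest libraries and KO CSPG A and C the 2 highest, and WT CSPG C lay within the range of the KO libraries. The means were 212 ± 35.0 and 248 ± 25.3 (SD, n = 4 each). The log2 fold change of 0.23 (SE 0.10) had a p of 0.0343 in limma before adjustment and an adjusted p of 0.258, with a 95% interval of the fold change from 1.01 to 1.36.

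Id3, on the plus strand of chromosome 4 (chr4:136143497-136145755), often shares its pattern with Id1. It held 636, 739, 829 and 658 normalised counts in WT CSPG A to D and 786, 805, 752 and 717 in KO CSPG A to D. The 4 KO libraries lay inside the range of the WT libraries. The log2 fold change was 0.10 (SE 0.07, adjusted p = 0.536), and the 95% interval of the fold change was 0.966 to 1.19.

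Id4, on the plus strand of chromosome 13 (chr13:48261427-48264036), marks neural stem cells and astrocyte precursors in the hippocampus. It held 539, 602, 581 and 712 normalised counts in WT CSPG A to D and 731, 609.8, 593 and 624 in KO CSPG A to D. WT CSPG D and KO CSPG A stood above the other 6 libraries, 1 from each genotype. KO CSPG over WT CSPG gave a log2 fold change of 0.07 (SE 0.09, adjusted p = 0.756), and the 95% interval of the fold change was 0.924 to 1.198. Genes on the opposite strand share 171 and 82 exonic bases with Id4 in the GENCODE M21 annotation. There Id4 has 3849 exonic bases, beside a deposited length of 1660. Whether the shared bases lie in the counted length is not known. The counting is not stated to have used strand, so any such reads cannot be told apart.

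The 250 bases before the RefSeq start of Id2, Id3 and Id4 are shown (GRCm38.p6, each 5′ to 3′ on the gene's own strand). ID genes are known targets of SMADs, though these windows need not hold the bases through which SMADs act. Capitals mark GGCGCC, a GC-rich SMAD motif that reads the same on both strands, and the SMAD box GTCT or AGAC on either strand; neither motif can overlap the other. A window was found for 8 of the 10 members, and Id1 and Smad7 had none. The Id3 window lies within the Id3 gene as placed above, because the RefSeq start used is farther downstream.
Id2, chr12:25096093-25096342, minus strand: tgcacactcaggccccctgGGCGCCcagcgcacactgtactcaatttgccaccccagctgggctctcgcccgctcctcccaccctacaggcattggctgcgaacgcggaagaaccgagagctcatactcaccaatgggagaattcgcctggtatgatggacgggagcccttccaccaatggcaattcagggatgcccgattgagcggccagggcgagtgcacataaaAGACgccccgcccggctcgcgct
Id3, chr4:136143572-136143821, plus strand: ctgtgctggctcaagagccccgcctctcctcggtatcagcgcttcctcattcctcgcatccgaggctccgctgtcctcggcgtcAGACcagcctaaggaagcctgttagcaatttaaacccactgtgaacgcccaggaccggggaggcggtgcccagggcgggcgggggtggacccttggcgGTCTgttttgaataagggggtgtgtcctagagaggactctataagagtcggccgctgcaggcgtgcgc
Id4, chr13:48260866-48261115, plus strand: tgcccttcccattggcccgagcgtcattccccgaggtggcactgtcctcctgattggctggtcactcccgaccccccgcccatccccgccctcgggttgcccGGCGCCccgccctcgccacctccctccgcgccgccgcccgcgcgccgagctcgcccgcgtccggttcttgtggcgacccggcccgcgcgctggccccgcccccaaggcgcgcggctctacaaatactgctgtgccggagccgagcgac
Id2 held 1 GGCGCC with its first base at -231 and 1 AGAC at -23 from the start, Id3 held no GGCGCC and 2 SMAD boxes at -166 and -68, and Id4 held 1 GGCGCC at -148 and no SMAD box. Of 32851 windows of this length, 9.59% held GGCGCC and 82.9% held a SMAD box, so a box in such a window is the usual case. The windows were 62.8% (Id2), 62.8% (Id3) and 75.6% (Id4) G or C, beside a median of 52.4% over all windows. Such matches describe letters only and no SMAD binding was measured.

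The receptors were steadier between libraries than the ID genes other than Id2. Bmpr1a, a type I receptor for BMP2 and BMP4, lies on the minus strand of chromosome 14 (chr14:34410734-34503341). It held 1659, 1649, 1700.1 and 1651 normalised counts in WT CSPG A to D and 1783, 1936, 1710.3 and 1644 in KO CSPG A to D. KO CSPG A, B and C lay above all WT libraries while KO CSPG D lay below them. The means were 1665 ± 23.9 and 1768 ± 125 (SD, n = 4 each), a log2 fold change of 0.08 (SE 0.04, adjusted p = 0.311), with a 95% interval of the fold change from 0.9999 to 1.12. An antisense gene shares 290 exonic bases with Bmpr1a.

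Bmpr2, the type II receptor that prefers BMPs, lies on the plus strand of chromosome 1 (chr1:59763400-59879014). It held 2465, 2639, 2340.2 and 2367 normalised counts in WT CSPG A to D and 2339, 2590.3, 2226 and 2287 in KO CSPG A to D. The library B was the highest in both genotypes and the groups overlapped. The difference was -0.06 in log2 fold change (SE 0.05, adjusted p = 0.610), and the 95% interval of the fold change was 0.899 to 1.03.

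Smad5 and Smad1 carry the signal of BMP receptors to the nucleus. Smad5, on the plus strand of chromosome 13 (chr13:56703010-56742377), held 1360.5, 1396, 1331 and 1310.5 normalised counts in WT CSPG A to D and 1245, 1361, 1291 and 1203 in KO CSPG A to D. In 3 of 4 KO libraries it was below every WT library, and KO CSPG B was level with WT CSPG A. The means were 1349 ± 37.2 and 1275 ± 67.8 (SD, n = 4 each), a log2 fold change of -0.08 (SE 0.04, adjusted p = 0.318), with a 95% interval of the fold change from 0.891 to 1.0006.

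Smad1, on the minus strand of chromosome 8 (chr8:79338395-79399518), held 661, 518, 551 and 605 normalised counts in WT CSPG A to D and 548, 591, 539 and 589.7 in KO CSPG A to D. The WT libraries held both the highest and the lowest value. Smad1 had a log2 fold change of -0.04 (SE 0.06, adjusted p = 0.840), and the 95% interval of the fold change was 0.889 to 1.07.

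Smad7, the inhibitory SMAD that recruits ubiquitin ligases to active receptors, lies on the plus strand of chromosome 18 (chr18:75367529-75395935) and was the lowest member. It held 70.01, 76.9, 93.1 and 96.8 normalised counts in WT CSPG A to D and 86.3, 83.9, 61.3 and 75.8 in KO CSPG A to D. The groups overlapped, with the lowest library in KO CSPG and the highest in WT CSPG. Smad7 had a log2 fold change of -0.13 (SE 0.13, adjusted p = 0.709), and the 95% interval of the fold change, 0.754 to 1.11, was the widest of the 9.

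Most of these small estimates moved by over 1.5 times when 1 library was left out. The log2 fold change of Bmpr1a was 0.04 without KO CSPG B. That of Bmpr2 was -0.02 without WT CSPG B, -0.03 without KO CSPG C and -0.10 without KO CSPG B. Id3 was at 0.05 without WT CSPG A, 0.07 without WT CSPG D and 0.18 without WT CSPG C. Id4 came to 0.0078 without KO CSPG A, 0.02 without WT CSPG A and 0.15 without WT CSPG D. Smad7 came to -0.03 without KO CSPG C, -0.06 without WT CSPG D, -0.08 without WT CSPG C and -0.21 without WT CSPG A. Id2 ran from -0.05 without WT CSPG D to 0.014 without KO CSPG D, and Smad1 from -0.09 without WT CSPG B to 0.025 without WT CSPG A. Id1 (0.16 to 0.33) and Smad5 (-0.11 to -0.06) stayed within 1.5 times of their values.

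Levels can be compared between genes only per length, and the normalised counts per kb of the length given in the table were averaged over the 8 libraries. Id2 led with 1495 per kb, 3.62 times the next gene, Id3, at 413. Id3 and Id4 (376) were not separated, since their ranges over the libraries overlapped. Id4 has 3849 exonic bases in the GENCODE M21 annotation beside the 1660 used here, so its place in this order depends on the length taken. The ends of Id2 also differ in that annotation. Bmpr1a followed at 270.3, then Id1 at 198 and Smad5 at 177, which overlapped each other. Bmpr2 (134), Smad1 (91.9) and Smad7 (17.8) came last, and apart from the pairs Id3 with Id4 and Id1 with Smad5 the ranges of neighbours in this order did not overlap.

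**Figure D2:**
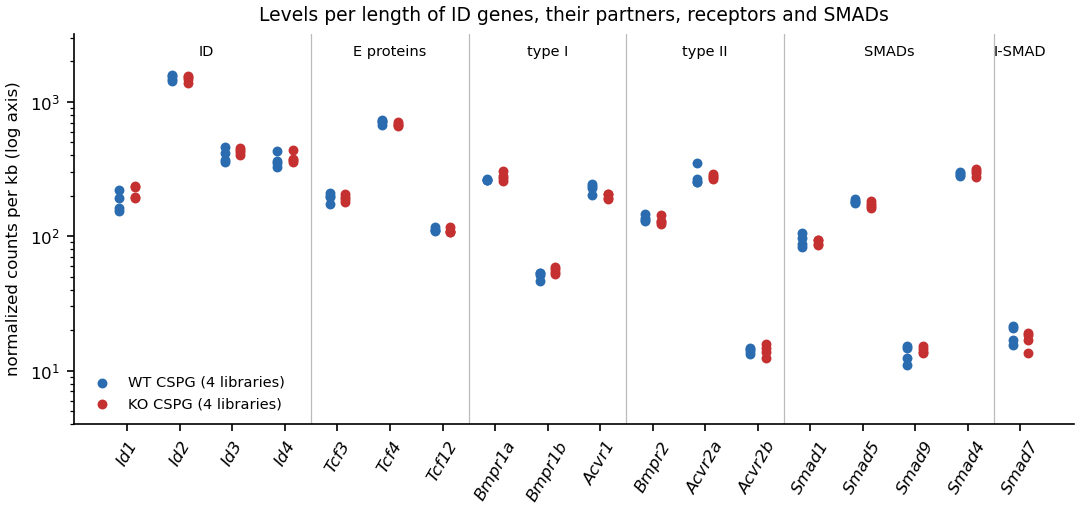
Normalised counts per kb on a log axis for the ID genes, the E proteins they capture, the type I and type II receptors, the SMADs and Smad7, with each of the 4 WT CSPG and 4 KO CSPG libraries as a point. Id2 sits highest of the ID genes near 1495 and Smad7 lowest of the members near 17.8, and the points of the genotypes lie together for every member.

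The members differed in how much they varied between libraries of 1 genotype. The within-group SD on the log2 scale was 0.22 for Smad7 and 0.19 for Id1, at percentiles 94.2 and 91.2 of the genes of the table. It was 0.15 for Id4, 0.13 for Id3 and 0.12 for Smad1. Smad5 (0.06), Bmpr1a (0.07), Id2 (0.07) and Bmpr2 (0.09) lay near or below the median of all genes, 0.08. Low counts widen this spread, which bears on Smad7, with 60 to 96 reads a library, more than on Id1, with 172 to 276.

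Across the 8 libraries the ID genes were compared in 6 pairs. Id1 and Id3 had the highest positive correlation (Pearson r = 0.64, exact permutation p = 0.0947, adjusted over the pairs 0.503, Spearman rho = 0.62, exact permutation p = 0.115, adjusted 0.345). The r was 0.55 with the group means removed and 0.47 without WT CSPG A and KO CSPG C, the libraries farthest from the median of Id1. Id2 and Id4 had the lowest (r = -0.56, exact permutation p = 0.168, adjusted 0.503, rho = -0.74, exact permutation p = 0.0458, adjusted 0.275), with an r of -0.69 without WT CSPG D and KO CSPG D. None of the 6 pairs passed after adjustment, and the other 4 had r between 0.02 and 0.42. With the ID genes averaged as z scores, the 5 most similar genes over the 8 libraries were Timm17b (r = 0.98), Gpd1l (0.97), Ptgr2 (0.95), Aprt (0.94) and E130114P18Rik (0.93). These were picked as the highest of all genes in the table, and none of the 5 was called between the genotypes.

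The rest of the BMP pathway and its neighbours were read from 8 lists with 78 genes, of which 54 had a row. Of these 54, 9 were called, beside 2.83% of all genes, 2 higher (1.06% of all genes) and 7 lower (1.77%) in KO CSPG. The lists were chosen with earlier results of these data known, so their counts cannot be read as an excess over all genes. An unadjusted p under 0.05 was found for 16 of the 54, beside 16.2% of all genes, and for 11 of the 54 the groups did not overlap, beside 9.24%. The median log2 fold change over the 54 was -0.05, beside -0.00 over all genes, and 35 were below 0. Of the 9 calls, those of Olig1 and Olig2 were kept when the prior variance of limma did not follow the mean, and the other 7 were lost, with adjusted p from 0.0963 to 0.196. With the summed Y-linked level as a covariate all 9 were lost, and so was the call of Fibcd1 itself (log2 fold change -3.68, SE 2.11, adjusted p = 0.810). Genotype accounted for 91.2% of the variance of that covariate, so the fit cannot tell genotype and the Y-linked level apart. The 4 called bHLH factors were among the 9, and the lists of receptors, antagonists, targets and the TGF-beta branch gave the other 5.

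Of 13 BMP ligands only Bmp3 and Bmp6 had a row, and neither was called. Bmp3, a ligand that opposes other BMPs, was at 89.9 to 178 normalised counts in WT CSPG and 120.2 to 151 in KO CSPG (log2 fold change 0.23, SE 0.21, adjusted p = 0.677). Bmp6, a ligand of the Bmp5 to Bmp8 branch, was at 40.1 to 56.4 and 30.7 to 67.1 (-0.24, SE 0.21, adjusted p = 0.652). No row was present for Bmp2, Bmp4, Bmp5, Bmp7, Bmp8a, Bmp8b, Bmp10, Gdf2, Gdf5, Gdf6 and Gdf7.

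Of the other receptors and co-receptors, 6 of 10 had a row and 2 fell, Acvr1 and Rgma. Acvr1, a type I receptor for BMP6 and BMP7, held 1148, 1094, 1181 and 983 normalised counts in WT CSPG A to D and 919, 990.2, 989 and 921 in KO CSPG A to D. WT CSPG D was the only WT library that reached into the KO range. The means were 1102 ± 86.7 and 955 ± 40.2 (SD, n = 4 each), and the log2 fold change was -0.20 (SE 0.05, adjusted p = 0.0259). Without WT CSPG A, WT CSPG C, KO CSPG A or KO CSPG D the value stayed between -0.19 and -0.17 and the call was lost, with adjusted p from 0.0817 to 0.102.

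Rgma, a membrane-anchored co-receptor for BMP2 and BMP4 that is also a guidance cue for axons, held 1644, 1668, 1716 and 1734 normalised counts in WT CSPG A to D and 1609.6, 1540.4, 1525 and 1440.0 in KO CSPG A to D. Every KO library was below every WT library. The log2 fold change was -0.15 (SE 0.04, adjusted p = 0.0314). The call was lost without WT CSPG C, WT CSPG D, KO CSPG B, KO CSPG C or KO CSPG D, with log2 fold changes from -0.15 to -0.12 and adjusted p from 0.0532 to 0.123. Its paralogue Rgmb had a log2 fold change of -0.07 (SE 0.05, adjusted p = 0.536). Bmpr1b, the type I receptor closest to Bmpr1a, was at 0.12 (SE 0.07, adjusted p = 0.370), and the type II receptors Acvr2a and Acvr2b were at 0.00 (SE 0.11) and -0.00 (SE 0.14).

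Of 15 genes listed as extracellular BMP antagonists, a heading that need not hold for each of them, 12 had a row and 1 fell. Kcp, a secreted protein with chordin-like repeats, held 172, 191, 195 and 165 normalised counts in WT CSPG A to D and 136, 123, 137 and 165 in KO CSPG A to D. KO CSPG D came close to the lowest WT library and the other 3 lay well below. The log2 fold change was -0.37 (SE 0.10, adjusted p = 0.0310). The call was lost without WT CSPG A, B or C or KO CSPG A, B or C, with log2 fold changes from -0.39 to -0.31 and adjusted p from 0.0550 to 0.116. Genes on the opposite strand share 168 and 95 exonic bases with Kcp.

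The other genes of this list did not pass. Fst, which encodes the activin and BMP binder follistatin, had means of 70.1 ± 21.7 and 105 ± 11.1 (SD, n = 4 each), a log2 fold change of 0.62 (SE 0.17, adjusted p = 0.0587), and 1 WT library, D, within the KO range. Nog, which encodes noggin, was at 46.0 to 49.9 normalised counts in WT CSPG and 55.0 to 59.7 in KO CSPG, without overlap, and its log2 fold change of 0.25 (SE 0.14) had an adjusted p of 0.381. Grem1 was at -0.26 (SE 0.11, adjusted p = 0.246), and Chrd, which encodes chordin, was at 0.17 (SE 0.09, adjusted p = 0.353). Among those with the highest normalised counts, Fstl1 was at -0.08 (SE 0.04, adjusted p = 0.247) and Crim1, which tethers BMPs at the membrane, was at -0.13 (SE 0.04, adjusted p = 0.0849).

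**Figure D3:**
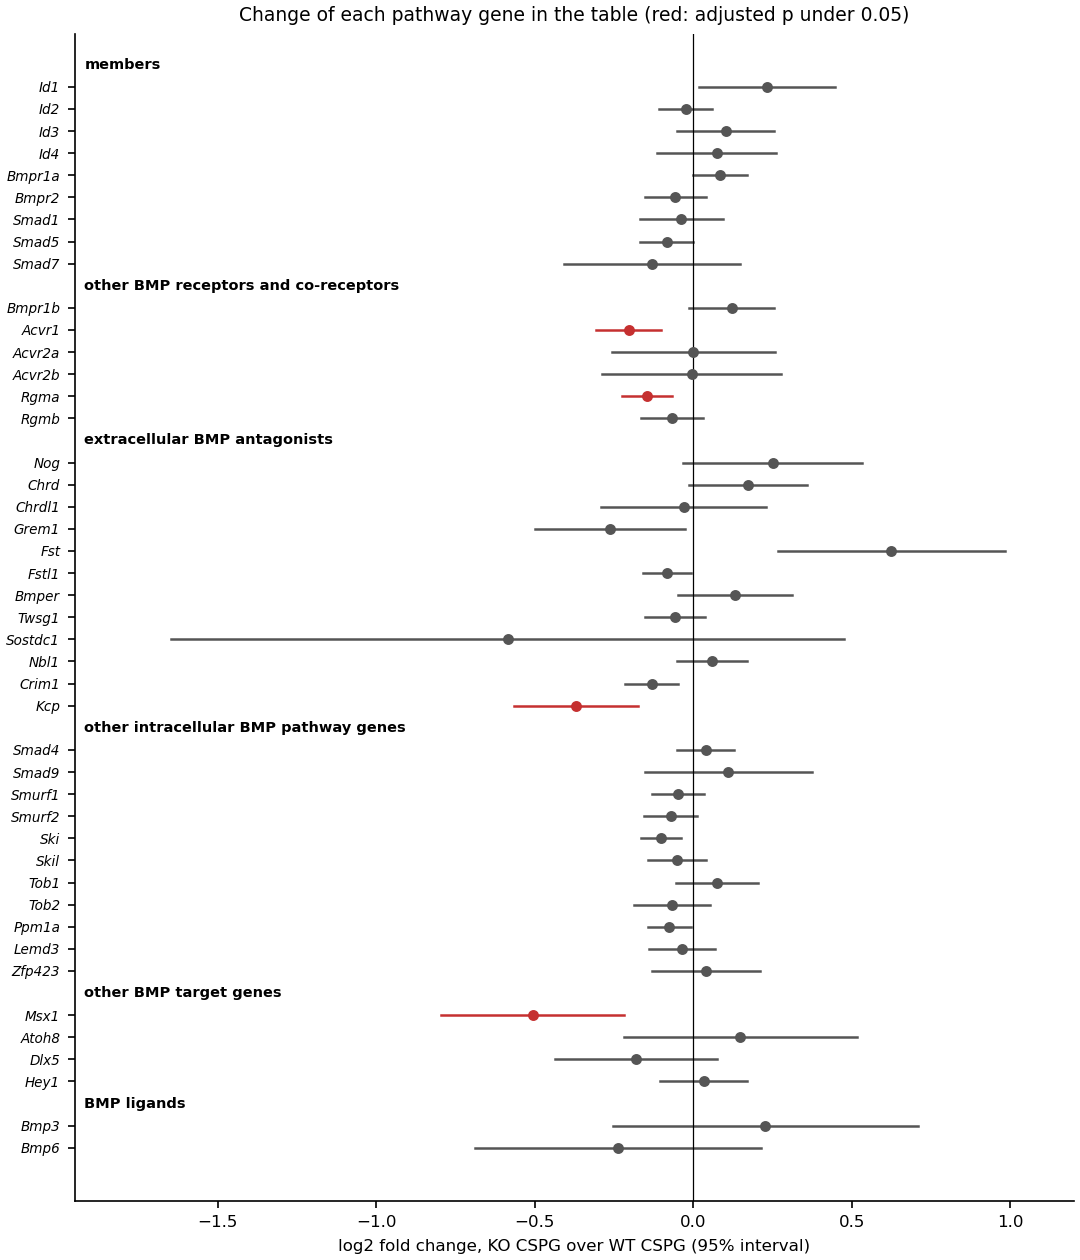
Log2 fold change between the genotypes on the x axis, above 0 where KO CSPG was higher, with its 95% interval for each member and each gene of the BMP lists in the table, red where the adjusted p is under 0.05. The intervals of 8 of the 9 members include 0 and that of Id1 lies just above it, while Acvr1, Rgma, Kcp and Msx1 stand below 0.

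Inside the cell, all 11 further pathway genes had a row and 0 were called, while 2 had an unadjusted p under 0.05 in limma. Smad4, the partner that BMP and TGF-beta SMADs share, lay between 1023 and 1172 normalised counts over the 8 libraries, with a log2 fold change of 0.04 (SE 0.04, adjusted p = 0.733). Smad9, the least abundant of the BMP SMADs, was at 0.11 (SE 0.13, adjusted p = 0.749). The ubiquitin ligases Smurf1 and Smurf2, which degrade BMP SMADs and receptors, were at -0.05 and -0.07 (adjusted p = 0.608 and 0.409). Ski, a repressor of SMAD complexes, held 3146 to 3301 normalised counts in WT CSPG and 2900.3 to 3029 in KO CSPG, without overlap, and its log2 fold change of -0.10 (SE 0.03) had an adjusted p of 0.0695. Ppm1a, a SMAD phosphatase, was also without overlap, at -0.08 (SE 0.03, adjusted p = 0.250).

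Of 6 further BMP targets 4 had a row and 1 fell. Msx1, a homeobox gene switched on by BMPs in the dorsal midline and limb, held 77.3, 87.7, 66.9 and 92.7 normalised counts in WT CSPG A to D and 57.2, 69.0, 52.1 and 49.3 in KO CSPG A to D. KO CSPG B reached just above WT CSPG C, and otherwise the groups were apart. Msx1 fell with a log2 fold change of -0.51 (SE 0.14, adjusted p = 0.0480). The call was lost under 10 of 16 alternatives, among them leaving out WT CSPG A, B or D or KO CSPG A, C or D, with adjusted p from 0.0928 to 0.131 and log2 fold changes from -0.53 to -0.44. Hey1 was at 0.03 (SE 0.07, adjusted p = 0.864), Dlx5 at -0.18 (SE 0.12, adjusted p = 0.522) and Atoh8 at 0.15 (SE 0.18, adjusted p = 0.760).

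In the TGF-beta branch, which uses SMAD2 and SMAD3 in place of the BMP SMADs, all 8 genes had a row and 1 fell. Tgfb2, a TGF-beta ligand made by neurons and radial glia, held 1331, 1232, 1224 and 1071 normalised counts in WT CSPG A to D and 980.3, 913, 953 and 1056 in KO CSPG A to D. The groups did not overlap, though WT CSPG D and KO CSPG D came close. The means were 1215 ± 107 and 976 ± 60.4 (SD, n = 4 each), and the log2 fold change was -0.31 (SE 0.06, adjusted p = 0.00691). It was called in every fit that left out 1 library, but not without the trend in the prior variance (adjusted p = 0.116). With the Y-linked covariate its value was 0.016 (SE 0.18). The other ligands and the receptors were also below 0 without passing, from -0.19 for Tgfb1 and Tgfbr3 to -0.05 for Tgfbr2, and Smad2 (-0.01) and Smad3 (0.03) lay near 0.

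The partners of the ID proteins were read next. The E proteins Tcf3, Tcf4 and Tcf12 all had a row and none was called, with log2 fold changes of -0.00 (SE 0.05), -0.05 (SE 0.03) and -0.02 (SE 0.04). Tcf4 was by far the most abundant, at 705 ± 23.9 and 680.0 ± 17.5 normalised counts per kb (SD, n = 4 each), above Id3 and Id4 and below Id2.

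Of 12 tissue-restricted bHLH factors, most of which pair with E proteins, 8 had a row, 2 rose and 2 fell. Olig1 and Olig2, which specify the oligodendrocyte lineage, rose most. Olig2 held 159, 191, 144 and 161 normalised counts in WT CSPG A to D and 291, 257, 296 and 287 in KO CSPG A to D, with no overlap (log2 fold change 0.79, SE 0.08, adjusted p = 1.2e-06). Olig1 held 369, 428, 426 and 424 in WT CSPG A to D and 661, 615, 616 and 587 in KO CSPG A to D, also with no overlap (0.59, SE 0.06, adjusted p = 2.33e-07). Both were called in every fit that left out 1 library.

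Both factors that fell, Neurod2 and Neurod6, are used in glutamatergic neurons. Neurod2 held 2425, 2658, 2396 and 2546 normalised counts in WT CSPG A to D and 2195, 2126, 2099.8 and 2233 in KO CSPG A to D (log2 fold change -0.21, SE 0.04, adjusted p = 0.000799). Neurod6 held 6432, 6649, 6320.4 and 5865 in WT CSPG A to D and 5782, 5297, 5287 and 5775 in KO CSPG A to D (-0.19, SE 0.04, adjusted p = 0.0118). In both the groups did not overlap, and both were called in every fit that left out 1 library, but not without the trend in the prior variance (adjusted p = 0.0963 for Neurod2 and 0.165 for Neurod6). Neurod1 (-0.01, SE 0.06) and Neurog2 (-0.09, SE 0.10) did not pass, and neither did Hes5, a Notch target of progenitors, at 0.34 (SE 0.12, adjusted p = 0.129). The glutamatergic genes among the neuron markers went opposite ways, and neither was called. Slc17a7 was at 0.14 (SE 0.08, adjusted p = 0.407) and Slc17a6 at -0.14 (SE 0.05, adjusted p = 0.111), the latter without overlap.

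**Figure D4:**
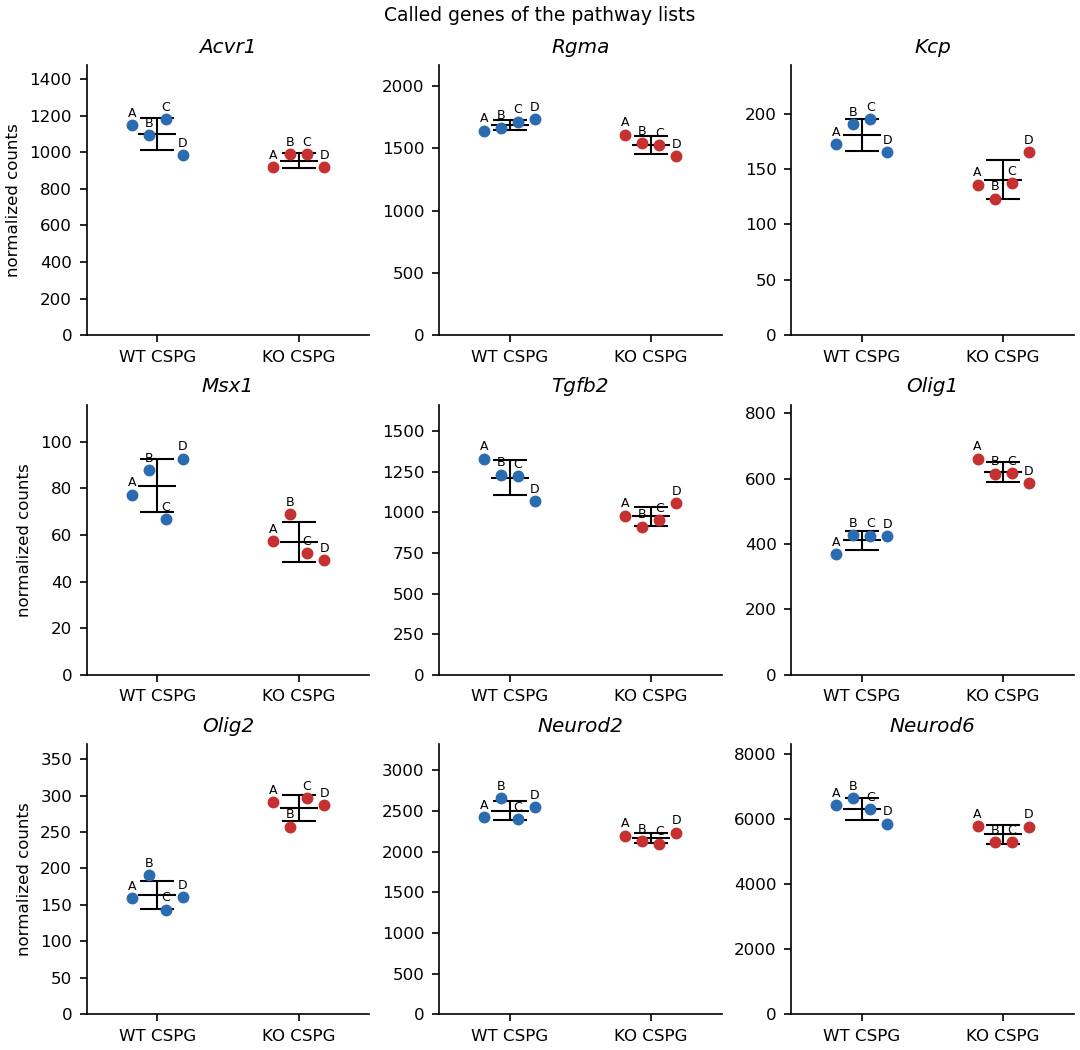
Normalised counts of the 9 called genes of the pathway lists in each library, 4 WT CSPG and 4 KO CSPG points per panel on linear axes from 0, with group mean and SD. Olig1 and Olig2 show the widest gaps, and in Acvr1 and Msx1 a library of one genotype reaches into the range of the other.

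Markers of other cells were set beside these values. None of the 11 astrocyte and radial glia markers in the table was called, and 7 had a log2 fold change above 0 (median 0.09). Their summed level was 53323 to 61944 normalised counts in WT CSPG and 59130.4 to 64416 in KO CSPG, so the groups overlapped. None of the 7 oligodendrocyte lineage markers was called and 6 were above 0 (median 0.17), with summed levels of 582 to 921 and 856 to 1061. Among them Pdgfra, a receptor of oligodendrocyte precursors, held 109 to 306 normalised counts in WT CSPG and 314 to 439 in KO CSPG, without overlap (log2 fold change 1.03, SE 0.38, adjusted p = 0.253), beside the rise of Olig1 and Olig2. Of the 7 microglia markers in the table all were above 0 and none was called (median 0.13). The 3 mural cell markers in the table had summed levels of 371 to 464 in WT CSPG and 475 to 592 in KO CSPG, which did not overlap, although none of the 3 was called. The gap came with Rgs5, at 148 ± 45.4 and 235 ± 31.4 normalised counts (SD, n = 4 each, log2 fold change 0.70, SE 0.21, adjusted p = 0.148), whose own groups overlapped, while Pdgfrb (0.08, SE 0.10) and Acta2 (0.09, SE 0.20) lay near 0, and Kcnj8, Abcc9, Vtn and Tagln had no row. Of 10 endothelial markers, cells in which Id1 and Id3 are known to be high, Kdr alone had a row (log2 fold change -0.42, SE 0.17, adjusted p = 0.190), and Pecam1, Cdh5 and Cldn5 had none. Neuron markers were at a median of 0.04, with summed levels of 80249.8 to 85136 and 80661.5 to 83327, and proliferation genes at a median of 0.00. The part of any of these cells in the levels of the ID and BMP genes was not tested.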

How the data were processed

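Poly-A RNA of hippocampal cultures was sequenced, and the 8 libraries with a column (4 WT CSPG, 4 KO CSPG, 0 columns left unused) were grouped by the labels. The authors deposited, under column names that call them counts, a normalised signal, in which read numbers had been scaled by 1 size factor a library. They also deposited the length of each gene, used here for values per kb. Per the submitters' processing notes the build was mm10 and the tool DESeq2; the aligner and counting program are not given in the sources used here. Columns with the authors' own log2 fold change, standard error, test score, p-value and adjusted p-value for the same comparison were not used. Each library's values were whole multiples of 1 step, which gave its reads, and no library was a copy of another (chi-square per degree of freedom 1.83 to 2.90 within groups).

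Values were fitted as log2(value + 1) with limma 3.58.1 in R 4.3.3, with a trended and robust prior variance, genotype alone, and Benjamini-Hochberg adjustment over 12012 genes; on this scale changes of low genes are understated. After the study's methods, 459 sex-chromosome genes and pseudogenes stayed in the fit but out of the counts of calls. Intervals are at 95%. The fit was tested on simulated data. The members and lists were chosen with earlier results of these data known, and 2 genes of the lists are not reported here or counted in them. Genes named are the members, Fibcd1, called list genes or those of a list with the highest normalised counts, and the 5 genes most like the mean z score of the ID genes; other list genes (such as Nog, Fst and Grem1) were chosen after their values were seen. Count models and another size factor method had been planned but were not run, because the deposited values are not counts and the table lacks genes below its floor. Alternatives were pseudocounts of 0.1 and 10, a mean of at least 100, at least 10 in every library, upper-quartile scaling, prior variance without trend or not robust, a replicate block, the summed Y-linked genes as a covariate, and each library left out. Promoter windows came from RefSeq (GRCm38.p6), and exon overlaps from GENCODE M21, in which 11997 of the identifiers were found. Exact permutation tests were two-sided (scipy 1.17.1).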

Additional observations from a re-analysis of the deposited data

Results flagged for a closer look

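The 9 measured members, the 9 called list genes and Fibcd1 gave 38 groups of 4 libraries. Of these, 2 held a library far from the other 3, beside 1.9 expected by chance. Other genes given with values are not in this count. Olig1 was at 369 normalised counts in WT CSPG A and between 424 and 428 in the other WT CSPG libraries. Fibcd1 was at 182 in WT CSPG D and between 54.3 and 70.4 in the other WT CSPG libraries. None of the 9 measured ID and BMP genes had such a library.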

How the results depend on the processing

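None of the 9 members was called under any of the 17 alternatives (16 for Smad7, whose mean is under 100), and their lowest adjusted p was 0.0686, for Id1 without WT CSPG C. Signs turned for Id2 without KO CSPG D (0.014; -0.050 to 0.014 over the fits without 1 library) and Smad1 without WT CSPG A (0.025; -0.093 to 0.025). With the Y-linked covariate they turned for Id3 (-0.18, SE 0.23), Bmpr1a (-0.15, SE 0.13), Smad1 (0.20, SE 0.21) and Tgfb2 (0.016, SE 0.18). That covariate left 1 gene called, 1 higher and 0 lower, and 0 of the pathway lists; genotype accounts for 91.2% of its variance. Without the trend in the prior variance 73 genes were called, 26 higher and 47 lower, and 3 of the pathway lists. Leaving out 1 library gave 177 to 550 genes, 61 to 274 higher and 116 to 276 lower, and 6 to 10 pathway genes; the cause was not tested. Upper-quartile scaling split the calls into 171 higher and 169 lower, beside 122 and 205, and lost Rgma (adjusted p = 0.0529) and Msx1 (0.0535). A prior variance that was not robust lost Msx1 (0.0578). Deviations of log2 values from the group means correlated at -0.07, 0.10, 0.28 and -0.01 between libraries with the same letter (A to D). The letters were therefore not taken as pairs. With a replicate block 404 genes were called, 157 higher and 247 lower, 10 of the pathway lists and 0 members. By the same deviations 4 of 8 libraries correlated best with their own letter. At 4 libraries a group, the interval of Smad7, the lowest member, runs from -24.6% to 10.8%, and that of Id2 from -7.25% to 4.30%.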

Other observations

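The make-up of each class was compared as shares of summed normalised counts per kb, chosen after the values were seen. Exact two-sided permutation tests over the libraries were used, with adjustment over 8 shares. Among the BMP type I receptors Bmpr1a, Bmpr1b and Acvr1, the share of Acvr1 was 42.1% ± 1.92 in WT CSPG against 37.2% ± 1.19 in KO CSPG (SD, n = 4 each), lower with no overlap (exact permutation p = 0.0286, the smallest that 4 against 4 allows, adjusted 0.114). That of Bmpr1a was 48.5% ± 1.26 and 52.3% ± 1.51 (SD, n = 4 each), higher with no overlap (exact permutation p = 0.0286, adjusted 0.114). Neither passed after adjustment, and the shares are per length.

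Id2 made up 61.4% ± 2.75 and 59.1% ± 1.56 of the summed counts per kb of Id1 to Id4 (SD, n = 4 each, exact permutation p = 0.200, adjusted 0.400). Id1 made up 7.42% ± 0.980 and 8.52% ± 0.705 (exact permutation p = 0.143, adjusted 0.381). Smad5 made up 63.1% ± 2.12 and 62.1% ± 1.52 of the summed counts per kb of Smad1, Smad5 and Smad9 (exact permutation p = 0.514, adjusted 0.686). The groups overlapped in all 3 of these shares, and those of the ID genes depend on the length taken for Id4.

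Ttr, the choroid plexus gene transthyretin, ranged from 11.6 to 3529 normalised counts in WT CSPG and from 5.11 to 243 in KO CSPG, so the libraries differed widely in it within a genotype. WT CSPG D, with the highest Ttr, also held the highest WT value of Id4, Smad7 and Bmp3, 3 genes picked after their values were seen, and a relation to Ttr was not tested.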
